A study of Mus musculus with 6 samples.

Results

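The CCAAT/enhancer binding proteins (C/EBPs) are a family of transcription factors, and 6 genes of that name, Cebpa, Cebpb, Cebpd, Cebpe, Cebpg and Cebpz, were described here in the colon of mice without epithelial Hnf4α. A gene was measured through the probe sets for which the platform annotation gives its symbol and no other. That held for 8 probe sets of 4 genes, Cebpa, Cebpb, Cebpd and Cebpg, among 18193 genes measured in this way. No such probe set was found for Cebpe and Cebpz, so 2 of the 6 genes have no value. Each of the 4 genes was represented by its probe set with the highest mean over the 6 arrays, and its other probe sets served as a check. The probe sets were selected on these means, and the family was picked with earlier results of the same arrays known, so the p-values below are a record of the fit over all probe sets and not independent evidence.

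Total RNA came from the proximal colon of 3 control mice, called wildtype, and 3 Hnf4a mutant littermates at 1 year of age, with 1 Affymetrix array for each mouse. The mutants carry Hnf4α alleles flanked by loxP sites and a Cre recombinase driven by the Villin promoter, which is active in intestinal epithelial cells, so that Hnf4α stays intact in muscle, stroma and immune cells. All 6 mice were injected with ketamine (300 mg/kg) and xylazine (40 mg/kg) before sacrifice. The colon was taken whole, so the RNA can hold every layer of the wall, in shares that may differ between mice. Smooth muscle markers were far lower in mutant replicate 2 than in the other mutants, as given below. Fewer cells of a type cannot be told apart from less RNA per cell.

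C/EBP proteins of the bZIP class bind DNA as dimers through a basic region and a leucine zipper. C/EBPα is known for arresting cell division and driving differentiation in liver, fat and granulocytes, while C/EBPβ and C/EBPδ are induced by cytokines such as interleukin-6 and control acute phase genes, in intestinal epithelial cells too. C/EBPε acts in the late maturation of granulocytes. C/EBPγ has no activation domain of its own and works by pairing with other bZIP factors, ATF4 among them. Cebpz, in spite of its name, encodes a nucleolar protein of ribosome assembly that is not of the bZIP class.

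Cebpa and Cebpg are neighbours on chromosome 7 and are transcribed away from each other, with 62727 bases between their start sites (GRCm38.p6, RefSeq). Both had their lowest signals in the mutants, and the 250 bases before each start site are therefore shown, 5′ to 3′, with matches in capitals. The letters searched on either strand were TATAAA (the TATA box), CCAAT (the box bound by NF-Y), TTGCG (the core of a C/EBP site), TTGCGCAA (the C/EBP palindrome), CAAAGTCCA (an HNF4 element) and 2 copies of AGGTCA spaced by 1 base (a direct repeat that HNF4 can bind). TTGCGCAA holds TTGCG. A promoter sequence was at hand for 3 of the 6 genes, Cebpa, Cebpb and Cebpg.
Cebpa, chr7:35119043-35119292, plus strand, TATAAA and TTGCG in capitals: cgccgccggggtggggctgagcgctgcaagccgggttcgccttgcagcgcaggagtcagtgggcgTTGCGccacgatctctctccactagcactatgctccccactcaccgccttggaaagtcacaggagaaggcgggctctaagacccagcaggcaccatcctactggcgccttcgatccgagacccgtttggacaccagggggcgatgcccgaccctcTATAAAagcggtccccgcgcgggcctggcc
Cebpg, chr7:35056567-35056816, minus strand, CCAAT read on the other strand (ATTGG) in capitals: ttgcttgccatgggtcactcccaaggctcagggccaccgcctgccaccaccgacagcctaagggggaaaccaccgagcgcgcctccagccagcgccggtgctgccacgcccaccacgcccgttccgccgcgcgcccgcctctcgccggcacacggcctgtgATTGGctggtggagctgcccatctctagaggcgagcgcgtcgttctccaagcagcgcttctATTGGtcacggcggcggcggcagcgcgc

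The TATA box of Cebpa starts at base -30 from the start site and its TTGCG at base -185. TATAAA is found in 12.4% and TTGCG in 14.5% of 32851 promoters of the same length. Cebpg has CCAAT matches that start at bases -89 and -28, and 33.8% of the promoters hold at least 1. Neither CAAAGTCCA, present in 0.384% of promoters, nor the direct repeat, present in 0.0335%, was found before Cebpa, Cebpb or Cebpg, which says only that these letters are not in these windows. The palindrome TTGCGCAA, present in 0.164% of promoters, was in none of the windows either. The Cebpb window held none of the motifs and had a GC content of 81.6%, against 66.4% for Cebpa, 70.8% for Cebpg and a median of 52.4% over all promoters.

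Hnf4a itself, the targeted gene, ran from 11.97 to 12.23 in the controls and from 10.09 to 10.17 in the mutants on the log2 scale of the arrays, and it fell by 1.94 (SE, the standard error of the fit, 0.10, limma adjusted p = 0.000788). Where its probes lie relative to the deleted part was not analysed here. The labels call mutant replicate 1 female, but Xist, the RNA of the inactive X, ran from 5.03 to 5.32 in the mutants and from 9.94 to 10.96 in the controls. The Y-linked Eif2s3y ran from 7.85 to 8.12 in the mutants and from 2.75 to 3.16 in the controls. By these RNAs all controls were female and all mutants male, so that sex and genotype cannot be told apart. Mutant replicate 2 also stood apart, with a median of 14 smooth muscle markers of -3.90 relative to the mean of the controls, against -0.30 and -0.47 in mutant replicates 1 and 3. Its medians of 14 fibroblast markers (-2.93) and 11 macrophage markers (-2.46) were low as well. The macrophage markers did not move as one, with 8 negative and 3 positive log2 fold changes between the groups. In mutant replicate 2, Cd68 (7.63) and Cd14 (8.77) were above their highest controls (7.01 and 8.58). The median of 12 gut epithelium markers was 0.05, 0.20 and 0.19 in mutant replicates 1, 2 and 3, and the defining markers Vil1 (11.20 to 11.83), Cdh1 (12.08 to 12.38) and Cdx2 (11.27 to 11.53) had high signals in every array.

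Cebpa had the widest fall of the measured C/EBP genes in the mutants, and it was the only one called. The 3 controls had log2 signals of 9.71, 9.60 and 9.76 and the 3 mutants of 8.85, 8.65 and 8.65. All mutants lay below all controls, and the groups were separated by far more than the spread within them. The control mean was 9.69 ± 0.08 (SD, n = 3) and the mutant mean 8.72 ± 0.11 (SD, n = 3), which gave a log2 fold change of -0.97 (SE 0.10, 95% interval -1.22 to -0.73, limma adjusted p = 0.0174) and 0.510 as a ratio of mutant to control. Of all genes 2.44% had a lower log2 fold change, and Cebpa ranked 53rd of 18193 genes by p-value.

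The size of this fall moved little when an array was left out, but the call did not hold each time. The log2 fold change was -0.96 without control replicate 1 (adjusted p = 0.102), -0.94 without control replicate 3 (adjusted p = 0.0762), -0.94 without mutant replicate 2 (adjusted p = 0.0534) and -0.94 without mutant replicate 3 (adjusted p = 0.108), all from limma. It passed without control replicate 2 (-1.02, adjusted p = 0.0322) and without mutant replicate 1 (-1.04, adjusted p = 0.0385). With 1 probe set, Cebpa has no second measurement on these arrays. An exact permutation test of 3 mice against 3 cannot give a two-sided p below 0.1.

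**Figure D1:**
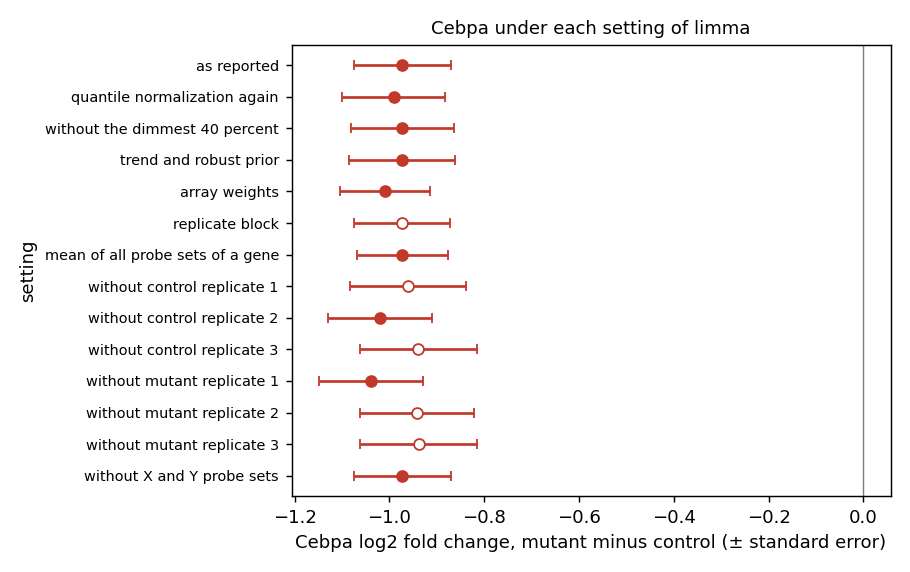
Log2 fold change of Cebpa, mutant minus control (horizontal axis, bars show the standard error), under the reported fit and 13 other settings of limma (vertical axis). Filled points have an adjusted p under 0.05. All points lie between -1.04 and -0.94, while 5 of them, the replicate block among them, are open.

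Cebpg, the partner factor without an activation domain, was lower in the mutants without passing the test. Its brightest probe set had log2 signals of 9.55, 8.85 and 9.02 in the controls and 8.61, 8.53 and 8.58 in the mutants. The mutants lay close together and below all controls, among which control replicate 1 was the highest. The log2 fold change was -0.56 (SE 0.18, 95% interval -0.99 to -0.13, limma adjusted p = 0.284), and -0.36 without control replicate 1 (adjusted p = 0.469). The other probe sets of Cebpg gave -0.76 (SE 0.20, adjusted p = 0.190) and -0.37 (SE 0.15, adjusted p = 0.368). In the former the controls had 8.21, 7.89 and 7.50 and the mutants 6.97, 7.33 and 7.03. In the latter the controls had 5.75, 5.31 and 5.38 and the mutants 5.28, 5.09 and 4.96. In each of the 3 probe sets of Cebpg all mutants were below all controls, as they were for 8.86% of all genes by their brightest probe set. The 3 probe sets measure 1 gene in the same 6 mice and are not separate evidence.

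Cebpb, the interleukin-6 responsive factor, had a smaller difference. Its brightest probe set had log2 signals of 8.48, 8.54 and 8.18 in the controls and 8.12, 8.03 and 8.0 in the mutants. The mutants were below all controls, but the gap between control replicate 3 and mutant replicate 1 was narrow. The log2 fold change was -0.35 (SE 0.12, 95% interval -0.64 to -0.06, limma adjusted p = 0.315). The dimmer probe set gave much the same value, -0.34 (SE 0.15, adjusted p = 0.409), with controls at 6.68, 7.03 and 6.69 and mutants at 6.38, 6.70 and 6.31. There the groups overlapped, since mutant replicate 2 was above control replicates 1 and 3.

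Cebpd, the acute phase factor, showed no shift between the groups that these arrays could resolve. Its log2 signals were 9.07, 8.64 and 9.0 in the controls and 9.18, 8.64 and 8.62 in the mutants, and the highest and the lowest value of the 6 both came from mutants. The log2 fold change was -0.08 (SE 0.19, limma adjusted p = 0.869), and its 95% interval, from -0.54 to 0.37, leaves room for a moderate change either way. It turned to 0.0011 without mutant replicate 2 and to 0.013 without mutant replicate 3. A dimmer probe set gave -0.06 (SE 0.13, adjusted p = 0.863), with all values between 4.34 and 4.73.

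**Figure D2:**
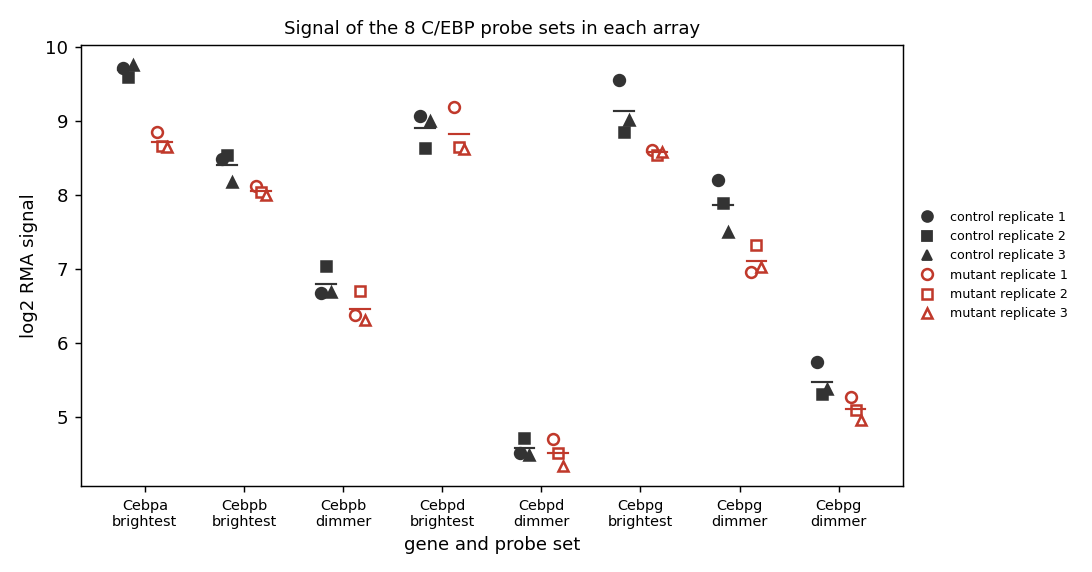
Log2 RMA signal (vertical axis) of the 8 C/EBP probe sets (horizontal axis) in each array. Filled symbols are controls, open symbols mutants, shapes mark the replicate and short lines the group means. The groups are separated for Cebpa, all 3 probe sets of Cebpg and, narrowly, the brightest probe set of Cebpb. They overlap for the dimmer probe set of Cebpb and both probe sets of Cebpd. Signals of different probe sets cannot be set against each other as amounts of RNA.

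Over the 4 measured genes, 1 was called lower and none higher at an adjusted p under 0.05 from limma, when 0.396% of all genes were called lower and 0.484% higher. At an unadjusted p under 0.05, 3 were lower (6.18% of all genes). All mutants were below all controls for 3 of the 4 genes, as they were for 8.86% of all genes. All 4 log2 fold changes were negative, with a median of -0.46, whereas 39.6% of all genes had negative values and the median of all genes was 0.05. With so few genes, which were picked as a family already known from these arrays, these shares are a description.

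The fall of Cebpa also shows in its difference from the other C/EBP genes of the same array, which restates that fall and is given without a test. The SE of these differences comes from the variances within both groups and not from limma. The difference in log2 signal between Cebpa and Cebpd was 0.65, 0.96 and 0.76 in the controls and -0.33, 0.01 and 0.03 in the mutants, a shift of -0.89 (SE 0.15). The groups did not overlap. Between Cebpa and Cebpb the difference shifted by -0.62 (SE 0.16), from a mean of 1.29 to one of 0.67, and the groups did not overlap either. Between Cebpa and Cebpg the shift was -0.41 (SE 0.20), and the groups overlapped, because the difference was 0.16 in control replicate 1 and 0.24 in mutant replicate 1.

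**Figure D3:**
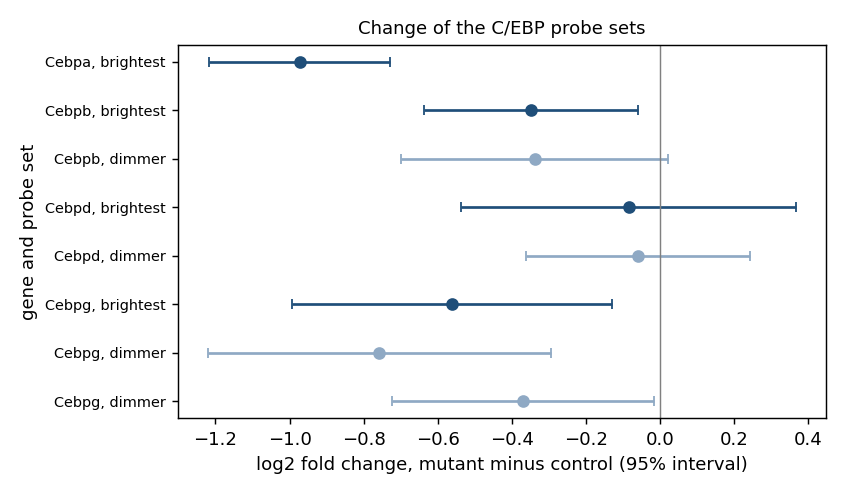
Log2 fold change, mutant minus control, of the 8 C/EBP probe sets (points) with 95% intervals (bars). Dark points are the brightest probe set of each gene. Cebpa lies at -0.97, and the intervals of both Cebpd probe sets and of the dimmer Cebpb probe set include 0.

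Cell type markers moved with some of these values. Markers of fat cells, in which Cebpa is also expressed, had a median over 6 genes of -0.19, -1.07 and -1.07 in mutant replicates 1, 2 and 3 relative to the mean of the controls, and of 0.13, 0.47 and -0.57 in control replicates 1, 2 and 3. Relative to its own control mean Cebpa was -0.84, -1.04 and -1.04 in the mutants, so that mutant replicate 1 was the highest mutant by both measures. Among the controls, however, replicate 3 was the lowest for the fat cell markers and the highest for Cebpa. None of the 6 fat cell markers passed the test, and their log2 fold changes were between -1.13 and -0.01. The part of fat cells in the Cebpa values was not tested. In mutant replicate 2, where the medians of muscle, fibroblast and macrophage markers were lowest, Cebpa (8.65) was as in mutant replicate 3 (8.65). Medians of 8 neutrophil markers were 0.18, 0.18 and 0.19 in the mutants and between -0.12 and 0.13 in the controls. Most of these markers had dim signals, below the array medians of 5.43 to 5.53.

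**Figure D4:**
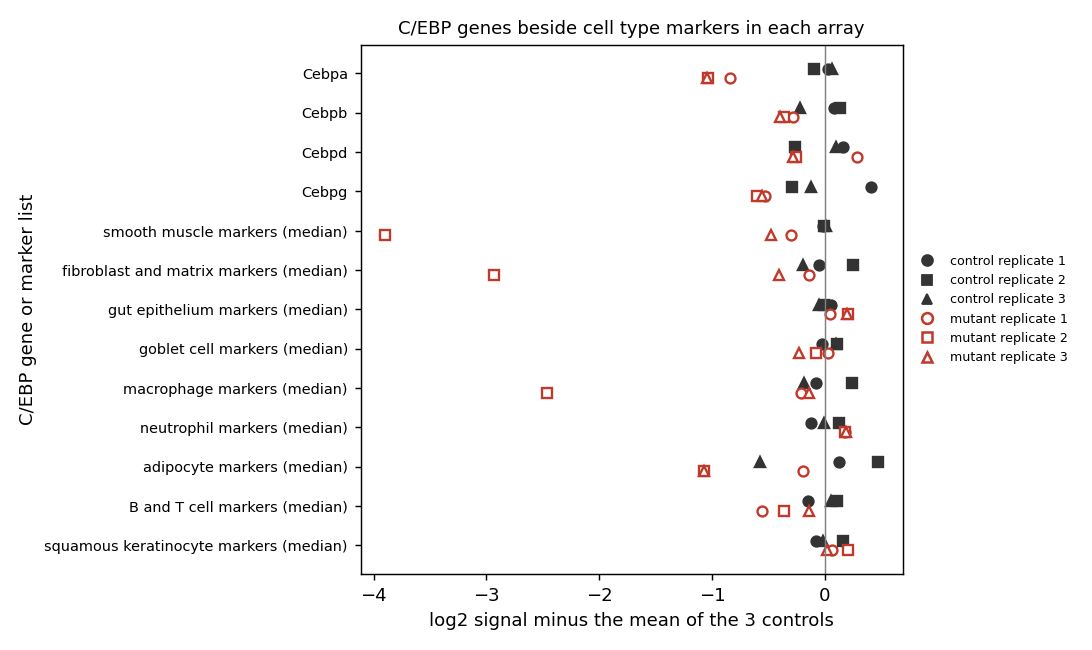
Distance from the control mean on the log2 scale (horizontal axis) for the 4 C/EBP genes and for the median of each list of cell type markers (vertical axis). Filled symbols are controls, open symbols mutants, and shapes mark the replicate. Mutant replicate 2 stands at -3.90 for smooth muscle, while the 3 mutants lie between -1.04 and -0.84 for Cebpa.

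Of the other bZIP factors, with which C/EBPs can pair or compete for DNA, none of 38 measured genes was called in either direction by limma. The shares of all genes called were 0.396% lower and 0.484% higher, so no call in a list of this size is no result about it. An unadjusted limma p under 0.05 was reached by 7 of them, and in either direction by 16.2% of all genes. Bach1, a repressor of the heme response, had -0.83 (SE 0.13, limma adjusted p = 0.0611). Among the limma settings it passed only with array weights (-0.89, adjusted p = 0.0302). The list's median log2 fold change was 0.0046 (19 positive and 19 negative). Maf, a bZIP factor of macrophages and plasma cells, had the widest difference, -2.11 (SE 0.56, adjusted p = 0.208), with 8.71, 8.51 and 8.32 in the controls and 6.99, 4.96 and 7.27 in the mutants. It was lowest in mutant replicate 2, the array with the lowest median of macrophage markers. Without that array Maf fell by 1.39 on the log2 scale (SE 0.16, limma adjusted p = 0.0441). The plasma cell marker Jchain was lower in every mutant (11.75, 8.91 and 11.96) than in the controls (12.60, 13.18 and 13.10), with -2.09 (SE 0.77, adjusted p = 0.335). Medians of 8 B and T cell markers relative to the controls were -0.56, -0.36 and -0.14 in mutant replicates 1, 2 and 3, and those of the macrophage markers in mutant replicates 1 and 3 were -0.21 and -0.14. The part of these cells in the Maf values was not tested. Hlf, a factor of the clock output, followed with -1.02 (SE 0.47, adjusted p = 0.415), and it too was lowest in mutant replicate 2, at 4.94.

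Of 26 genes that carry cytokine and kinase signals to the C/EBPs, none was called, when 0.396% of all genes were called lower and 0.484% higher. The median of the 26 was -0.01. Id1, an inhibitor of differentiation factors, had 10.29, 10.29 and 10.19 in the controls and 10.66, 11.53 and 11.41 in the mutants, a log2 fold change of 0.94 (SE 0.23, limma adjusted p = 0.167). It passed without mutant replicate 1 (1.21, adjusted p = 0.0246). Osmr, the oncostatin M receptor, had -0.80 (SE 0.50, adjusted p = 0.525) with overlapping groups. An unadjusted p under 0.05 was reached by 5 of the 26, against 16.2% of all genes.

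Among 25 acute phase and inflammatory genes known to be C/EBP targets, limma called 1 lower and 1 higher. Of all genes 0.396% were called lower and 0.484% higher. An unadjusted limma p under 0.05 was reached by 5 of the 25, against 16.2% of all genes. Saa1, serum amyloid A1, had 12.39, 11.71 and 11.77 in the controls and 9.11, 8.94 and 9.98 in the mutants, a log2 fold change of -2.61 (SE 0.31, limma adjusted p = 0.0252). Saa2 (-1.57, SE 0.34, adjusted p = 0.135) is a near copy of Saa1, and probes may not separate them. Il1rn, the interleukin-1 receptor antagonist, had 6.85, 6.38 and 8.05 in the controls and 10.42, 9.84 and 10.25 in the mutants, a log2 fold change of 3.08 (SE 0.41, adjusted p = 0.0373). The groups did not overlap for either gene. Without mutant replicate 2 neither passed (Saa1 -2.41, adjusted p = 0.0578, and Il1rn 3.24, adjusted p = 0.0766). Saa1 passed without control replicate 2 or mutant replicate 3 and not without control replicate 1 (-2.40, adjusted p = 0.115), control replicate 3 (-2.71, adjusted p = 0.0774) or mutant replicate 1 (-2.50, adjusted p = 0.0738). Il1rn passed without control replicate 2 or 3 and not without control replicate 1 (2.96, adjusted p = 0.188), mutant replicate 1 (2.95, adjusted p = 0.0996) or mutant replicate 3 (3.04, adjusted p = 0.164). The median of the list was 0.06, near that of all genes.

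Of 21 metabolic and adipose genes known to be C/EBP targets, none was called, when 0.396% of all genes were called lower and 0.484% higher. Negative log2 fold changes were found for 15 of the 21, against 39.6% of all genes. The median was -0.48, against 0.05 for all genes. An unadjusted p under 0.05 was reached by 6, against 16.2% of all genes. Ppargc1a, a coactivator of mitochondrial and gluconeogenic genes, had -1.11 (SE 0.23, limma adjusted p = 0.1235). Among the limma settings it passed only with array weights (-1.35, adjusted p = 0.0366). Cd36, a fatty acid transporter, had -1.17 (SE 0.35, limma adjusted p = 0.255), and Fabp4, the fatty acid binding protein of fat cells and endothelium, had -1.13 (SE 0.28, adjusted p = 0.173). The list median relative to the controls was -0.08, -0.60 and -0.36 in mutant replicates 1, 2 and 3. The list holds all 6 measured fat cell markers, so its median and theirs are not independent, and the part of fat cells was not tested.

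Granule and marker genes of granulocytes, the known field of C/EBPε, had a median of 0.10. None of 18 was called by limma, when 0.396% of all genes were called lower and 0.484% higher. An unadjusted limma p under 0.05 was reached by 1, against 16.2% of all genes. S100a8, a calcium-binding protein of neutrophils, had 0.56 (SE 0.19, adjusted p = 0.306), from 3.97, 4.31 and 3.79 in the controls to 4.91, 4.46 and 4.37 in the mutants. These signals were dim, below the array medians of 5.43 to 5.53, as were those of most genes of the list. Lyz2, lysozyme of macrophages and granulocytes, had -1.24 (SE 0.69, adjusted p = 0.477) and was lowest in mutant replicate 2, at 6.59.

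Genes of ribosome assembly in the nucleolus, the known field of Cebpz, gave 22 positive log2 fold changes of 24, with a median of 0.21. Negative values were found for 39.6% of all genes, whose median was 0.05. None of the 24 was called by limma, when 0.396% of all genes were called lower and 0.484% higher. An unadjusted limma p under 0.05 was reached by 3, against 16.2% of all genes. Rrp12 had 0.58 (SE 0.25, adjusted p = 0.401) and Utp20 0.58 (SE 0.12, adjusted p = 0.118). None of 8 other CCAAT-binding factors, such as the NF-Y subunits and nuclear factor I, was called or had an unadjusted p under 0.05 from limma. Their values ran from -0.20 (Nfic) to 0.15.

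**Figure D5:**
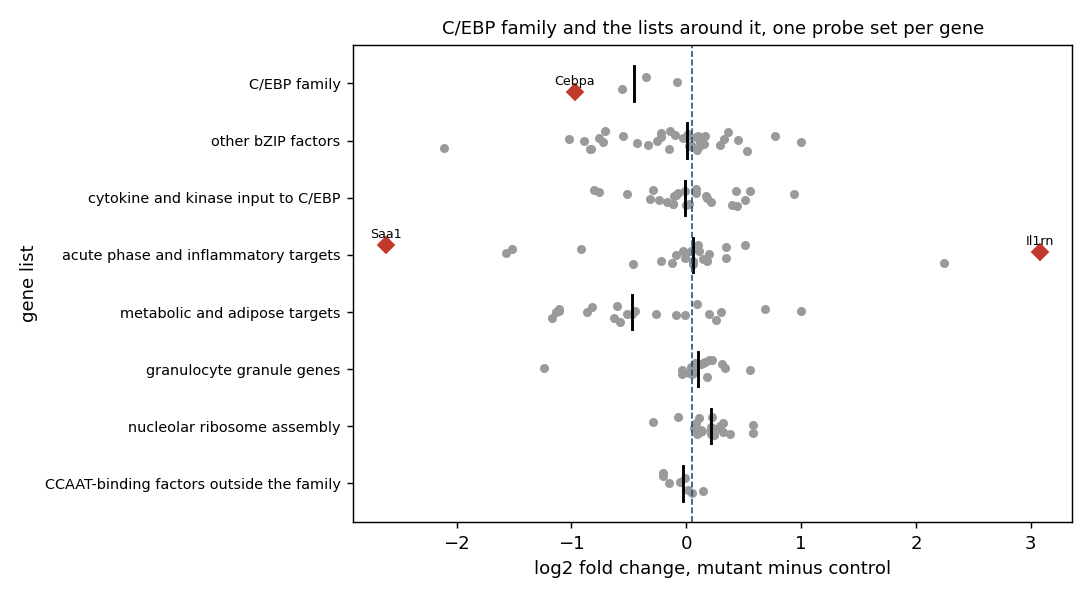
Log2 fold change, mutant minus control (horizontal axis), of each gene of the C/EBP family and of 7 lists (vertical axis), with 1 probe set per gene. Red diamonds passed an adjusted p of 0.05, black bars are list medians and the dashed line is the median of all genes, 0.05. Cebpa, Saa1 and Il1rn are the genes that passed.

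The genes whose profile over the 6 arrays was most like that of Cebpa, by the root mean square difference of signals centred on each gene's mean, were Bach1 (0.11), Kdm6a, a histone demethylase (0.11), and Tmem140 (0.11). Bach1 had 8.71, 8.50 and 8.59 in the controls and 7.98, 7.76 and 7.56 in the mutants (log2 fold change -0.83, limma adjusted p = 0.0611). Kdm6a (-0.88, adjusted p = 0.0462) lies on the X chromosome, and the groups differ in sex by their RNA. For Cebpg the nearest were Cnst (0.08), Castor2 (0.08) and Depdc7 (0.09), and for Cebpd Pds5b (0.05), Dnajc12 (0.06) and Sema4c (0.06). For Cebpa no gene came within 0.1, against 8 for Cebpg and 49 for Cebpd. Signals were centred but not scaled, so these counts depend on the size of each change (-0.97, -0.56 and -0.08). They do not mark the profile of Cebpa as unusual.

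Measured genes next to Cebpg and Cebpa on the chromosome, chosen after their values were seen, did not share one direction. On the side of Cebpg, Pepd had a log2 fold change of 0.15 (SE 0.11, limma adjusted p = 0.594), Chst8 0.65 (SE 0.27, adjusted p = 0.371) and Kctd15 -0.75 (SE 0.22, adjusted p = 0.245). On the side of Cebpa, Slc7a10 had -0.16 (SE 0.22, adjusted p = 0.772), Lrp3 -0.16 (SE 0.14, adjusted p = 0.625) and Gpatch1 0.06 (SE 0.09, adjusted p = 0.801). Of the 8 genes in this stretch Cebpa alone passed the test, when 0.396% of all genes were called lower and 0.484% higher. The stretch was chosen around Cebpa and Cebpg, so this count is no result about it. The groups did not overlap for Cebpa, Cebpg and Kctd15, which were lower in the mutants, as were 8.86% of all genes without overlap. Nor did they for Chst8, which was higher, as were 14.5% of all genes without overlap.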

How the data were processed

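Total RNA of 6 colons was hybridised to Affymetrix Mouse Genome 430 2.0 arrays, 1 per mouse. The authors normalized the arrays by RMA and deposited log2 values, compiled in FlexArray 1.1. These were used as deposited. The median per array was between 5.43 and 5.53, and the number of arrays limits the precision. Of 45101 probe sets, 64 controls were left out and 45037 were tested with limma 3.58.1 in R 4.3.3, mutant minus control, with Benjamini-Hochberg adjustment and a threshold of 0.05. The study's methods name SAM, which was run as an alternative with 20 relabellings. Groups were taken from the sample titles. Symbols came from the platform annotation (34958 probe sets with 1 symbol, 932 with several, 9211 not listed) and were updated by gene ID to RefSeq for 34754. Promoters came from RefSeq, GRCm38.p6. The self-test on simulated data ran before the fit.

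All members were named, with the called genes of each list or otherwise its 2 widest log2 fold changes, and the 3 genes of most similar profile for the members of widest change or highest signal. Members and lists were chosen with earlier results of these data known. Replicate numbers share no stated origin across groups. The p-values set the difference between groups against the spread between mice, which limma moderates over all probe sets. They cannot separate genotype from sex. Alternatives were a second quantile normalization, a filter on the dimmest 40% of probe sets, a trended robust prior, array weights, the replicate number as a block, SAM, the mean of all probe sets of a gene and each array left out. The fit without X and Y probe sets, and all alternatives for the lists, were chosen after seeing the data.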

Additional observations from a re-analysis of the deposited data

How the results depend on the processing

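Cebpa, Cebpb and Cebpg kept negative log2 fold changes under every alternative run. Cebpd, which was never called, lay between -0.27 and 0.013 when an array was left out, and was positive without mutant replicate 2 (0.0011) and without mutant replicate 3 (0.013). The number of C/EBP genes called, 1, was 3 by SAM at an unadjusted p of 0.05 or less, where 15.5% of all genes passed, and between 0 and 1 when an array was left out. The number of probe sets called, 239, became 599 with array weights, 5543 by SAM and between 39 and 336 when an array was left out. The number of genes called over the 7 lists, 2 of 159, was between 0 and 2 when an array was left out, 4 with array weights (Saa1, Il1rn, Bach1 and Ppargc1a) and 24 by SAM. With the replicate number as a block, 0 C/EBP genes (Cebpa -0.97, limma adjusted p = 0.0664), 0 genes of the lists and 62 probe sets were called. Deviations from the group mean had correlations of -0.02, 0.25 and -0.15 between same-numbered mice, and between -0.29 and 0.38 for the other pairs. With 3 arrays per group, each centred on its group mean, these values cannot show whether the mice were paired. The causes of these shifts were not tested.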
